A study of Rattus norvegicus with 13 samples.

Results

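Facial skin-derived precursors (SKPs) were compared with SKPs from trunk skin. The members were chosen by the arrays' titles: 3 arrays of facial SKPs against 3 of dorsal and 3 of ventral SKPs, so 9 of the 13 arrays of the study. Trunk is the mean of the dorsal and ventral group means, with equal weight. Of 14506 genes measured, 42 set facial SKPs apart from both trunk regions while the trunk regions were alike, 33 of them higher and 9 lower in facial SKPs.

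The study profiled cultured cells of adult Sprague Dawley rats on Affymetrix Rat Gene arrays. SKPs are precursor cells of the dermis that grow as floating spheres and share properties with embryonic neural crest cells. All 3 regions were represented by 3 isolates that the series' text calls independent, and all cells had been passaged 2 times. The labels name no genetic change or treatment. They do not give the sex and exact age of the rats, how many were pooled for an isolate, or the tissue the MSCs came from. The other 4 arrays, of mesenchymal stromal cells (MSCs) of adult rats at the same passage, entered the estimate of the spread and serve below as a reference level. The series' title asks about a dermal stem cell that resembles neural crest and arises from distinct developmental origins, and facial against trunk skin is a contrast of such origins.

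Facial dermis comes largely from the cranial neural crest, whereas the dermis of the back comes largely from somites and that of the belly from the lateral plate. Cells along the body axis carry a positional code of Hox genes, homeobox transcription factors that lie in clusters and are switched on in nested domains from the hindbrain to the tail. The anterior cranial neural crest that builds the upper face develops without Hox expression and relies on other homeobox factors, such as those of the Alx, Msx and Lhx families. Adult fibroblasts in culture are known to keep much of the Hox code of the site they came from.

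Values are log2 expression levels, so that a difference of 1 is a change of 2-fold, and a level can be set against levels of the same gene alone. Differences come from a limma fit over all 13 arrays with its standard error (SE), and adjusted p-values are Benjamini-Hochberg values over all 14506 genes. A gene was called at an adjusted p under 0.05. A gene sets facial apart where 4 conditions hold. Facial minus trunk, facial minus dorsal and facial minus ventral are each called in 1 direction. The difference from each trunk region is at least 1. No facial array overlaps with any of the 6 trunk arrays. Dorsal minus ventral is at most 0.5, with its 95% interval inside 1. Where levels of a marker differ in such bulk cultures, fewer cells of a type and less RNA per cell cannot be told apart.

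The labelled cell type was checked against genes known for SKPs, with MSCs as the reference. The retinoid-binding protein Crabp1 was at 12.63, 12.51 and 12.51 on the facial arrays, and higher there than in MSCs by 5.01 (adjusted p = 0.00166). The stem cell factor Sox2 was at 7.50, 6.63 and 6.20 on the facial arrays, and Twist1, a mesenchymal factor of the neural crest, at 9.56, 9.26 and 8.94. Both were higher than in MSCs, by 1.51 (adjusted p = 0.00521) and 1.70 (adjusted p = 0.00694). Versican (Vcan), a proteoglycan of the dermal papilla, was at 10.73, 11.35 and 11.22 but did not separate facial SKPs from MSCs (mean 10.79, difference 0.31, adjusted p = 0.649). The intermediate filament gene nestin (Nes), often used to mark SKPs, was at 4.84, 5.12 and 4.41 on the facial arrays and at 4.33, 5.03 and 3.57 on the dorsal ones, against 7.62, 7.42 and 7.57 on the ventral ones and a mean of 5.55 in MSCs. Nes in facial SKPs was thus not above MSCs (facial minus MSC -0.76, adjusted p = 0.364). Nor was Snai2 (-0.83, adjusted p = 0.251), which in trunk SKPs was below MSCs (-1.41, adjusted p = 0.0193). Facial SKPs exceeded MSCs in Tfap2a (2.41, adjusted p = 0.00263), Ngfr (0.88, adjusted p = 0.038) and Mmp13 (8.48, adjusted p = 1.26e-06). None of Sox2 (facial minus trunk -0.29), Nes (-1.13), the neural crest factors Snai2 (0.58) and Tfap2a (-0.23), Twist1 (-0.02), the neurotrophin receptor Ngfr (-0.33), Crabp1 (0.21), Vcan (0.37) and the collagenase Mmp13 (0.06) was called in facial minus trunk. These 9 genes were therefore not shown to differ between facial SKPs and the trunk mean at this number of arrays. Their adjusted p-values in that contrast lay between 0.242 for Nes and 0.984 for Twist1. Against ventral SKPs alone, Nes was called lower in facial SKPs (-2.74, adjusted p = 0.0142).

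Array medians lay between 4.91 and 5.01. The median SD over the arrays of a group was 0.151 in facial, 0.202 in dorsal, 0.117 in ventral SKPs and 0.187 in MSCs. Dorsal array 3 stood apart from the other dorsal arrays: it gave a mean of 10.09 over hypoxia and glycolysis genes against 8.96 and 8.99, its fibrillar collagen and matrix genes 8.51 against 10.10 and 10.04, and its cell cycle genes 4.97 against 7.26 and 6.77. Facial array 3 carried the most RNA of macrophage and leukocyte markers, whose mean was 9.69 on it against 7.43 and 6.03 on the other facial arrays. Calls and differences that changed without these arrays are given below.

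Of all 14506 genes, 391 were called in facial minus trunk (2.7%), 185 higher (1.28%) and 206 lower (1.42%) in facial SKPs. With each array centred on its median the split was 178 higher and 324 lower. Most of these genes were not called against both trunk regions. Of the 391 genes, 87 (22.3%) were called against dorsal and against ventral SKPs in the same direction. Another 244 (62.4%) were called against ventral SKPs alone and 44 (11.3%) against dorsal SKPs alone. The other 16 were called against neither region on its own. A missing call against 1 region does not show that facial SKPs were like that region. The comparisons with dorsal and with ventral SKPs share the facial arrays, so their counts are not independent. Facial minus dorsal called 1.25% of all genes, facial minus ventral 6.6% and dorsal minus ventral 6.11%. Without dorsal array 3 and facial array 3 together, 110 genes were called higher and 102 lower.

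The rule kept 42 genes, 0.29% of those tested (higher 0.227%, lower 0.062%). The same rule with the regions exchanged kept 18 genes for dorsal (0.124%) and 84 for ventral SKPs (0.579%). Since the rule used the values of these contrasts, the differences given below describe the genes it chose. In 1099 genes (7.58% of all) no facial array overlapped with a trunk array, in 475 of them with facial arrays above (3.27%) and in 624 below (4.3%). All conditions but the likeness of dorsal and ventral SKPs held for 61 genes. Of these, 13 had a dorsal minus ventral difference over 0.5, and in 6 it was smaller but its interval reached beyond 1. Just inside the limit lay Ggt1, with dorsal minus ventral at 0.50, and Cdh6 at -0.46. Just outside lay Slc22a23 at 0.55, Hoxc9 at -0.57 and Gpr85 at -0.60.

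Promoters of 4 of these genes are shown because they stand for the parts of the pattern: Pax3 and Cdh6 for the neural crest genes, Lhx6 for the craniofacial factors and Hoxc4 for the Hox genes. Each spans the 250 bases before and 50 bases after the RefSeq gene start (build GRCr8), 5′ to 3′ on the strand of the gene. Pax3 lies at chr9:87112482-87112781 (minus strand), Cdh6 at chr2:63952238-63952537 (minus), Lhx6 at chr3:39853374-39853673 (minus) and Hoxc4 at chr7:136048809-136049108 (plus). Capitals mark matches on either strand to any of 5 motifs: TAATTA (homeodomain), TGATNNAT (Hox with Pbx), CATCTG (Twist E-box), TGACAG (Meis) and GCCNNNGGC (AP-2).
Pax3: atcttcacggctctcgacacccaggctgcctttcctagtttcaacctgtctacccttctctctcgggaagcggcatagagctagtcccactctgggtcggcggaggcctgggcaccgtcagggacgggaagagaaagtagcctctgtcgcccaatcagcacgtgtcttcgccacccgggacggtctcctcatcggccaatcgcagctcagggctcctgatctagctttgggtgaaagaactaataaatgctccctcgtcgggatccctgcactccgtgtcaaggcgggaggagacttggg
Cdh6: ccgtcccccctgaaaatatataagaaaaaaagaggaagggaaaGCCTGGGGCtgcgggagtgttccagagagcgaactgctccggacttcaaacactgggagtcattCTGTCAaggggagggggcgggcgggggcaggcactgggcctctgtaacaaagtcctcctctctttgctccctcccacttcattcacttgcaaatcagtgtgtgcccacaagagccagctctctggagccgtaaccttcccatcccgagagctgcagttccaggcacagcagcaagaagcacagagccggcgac
Lhx6: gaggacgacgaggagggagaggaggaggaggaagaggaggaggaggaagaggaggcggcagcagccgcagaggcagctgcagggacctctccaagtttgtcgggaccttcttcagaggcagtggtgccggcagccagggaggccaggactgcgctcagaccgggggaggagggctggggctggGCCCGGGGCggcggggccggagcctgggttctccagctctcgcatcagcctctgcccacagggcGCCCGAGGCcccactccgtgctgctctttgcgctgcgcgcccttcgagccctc
Hoxc4: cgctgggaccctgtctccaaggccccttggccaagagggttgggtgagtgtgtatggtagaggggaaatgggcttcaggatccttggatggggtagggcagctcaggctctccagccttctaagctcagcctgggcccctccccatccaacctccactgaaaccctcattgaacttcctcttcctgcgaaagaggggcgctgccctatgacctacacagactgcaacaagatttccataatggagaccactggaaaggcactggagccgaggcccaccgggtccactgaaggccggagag
The Cdh6 window held 1 Meis and 1 AP-2 match, the Lhx6 window 2 AP-2 matches, and the windows of Pax3 and Hoxc4 no match to the 5 motifs. RefSeq promoters were found for 36 of the 42 genes (30 higher, 6 lower) and for 11970 of the genes measured. The homeodomain letters were present in 6.67% of the 30 promoters of higher genes (Pdzrn4 and Ptx3) against 4.33% of all promoters. Those of Meis were present in 26.7% against 18.4%, those of AP-2 in 26.7% against 20.9%, those of the Twist E-box in 20% against 13.2%, and those of Hox with Pbx in 6.67% against 7.18%. Of the 6 promoters of lower genes, 2 held the Twist E-box (Cadps and Fgf10) and 1 the Meis letters (Ptger4). The median GC content was 60.3% in the promoters of higher genes, 61.2% in those of lower genes and 58% in all, and the AP-2 letters are rich in G and C. A match is a description of the letters alone, and with so few promoters a share moves by several percentage points with 1 gene.

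**Figure D1:**
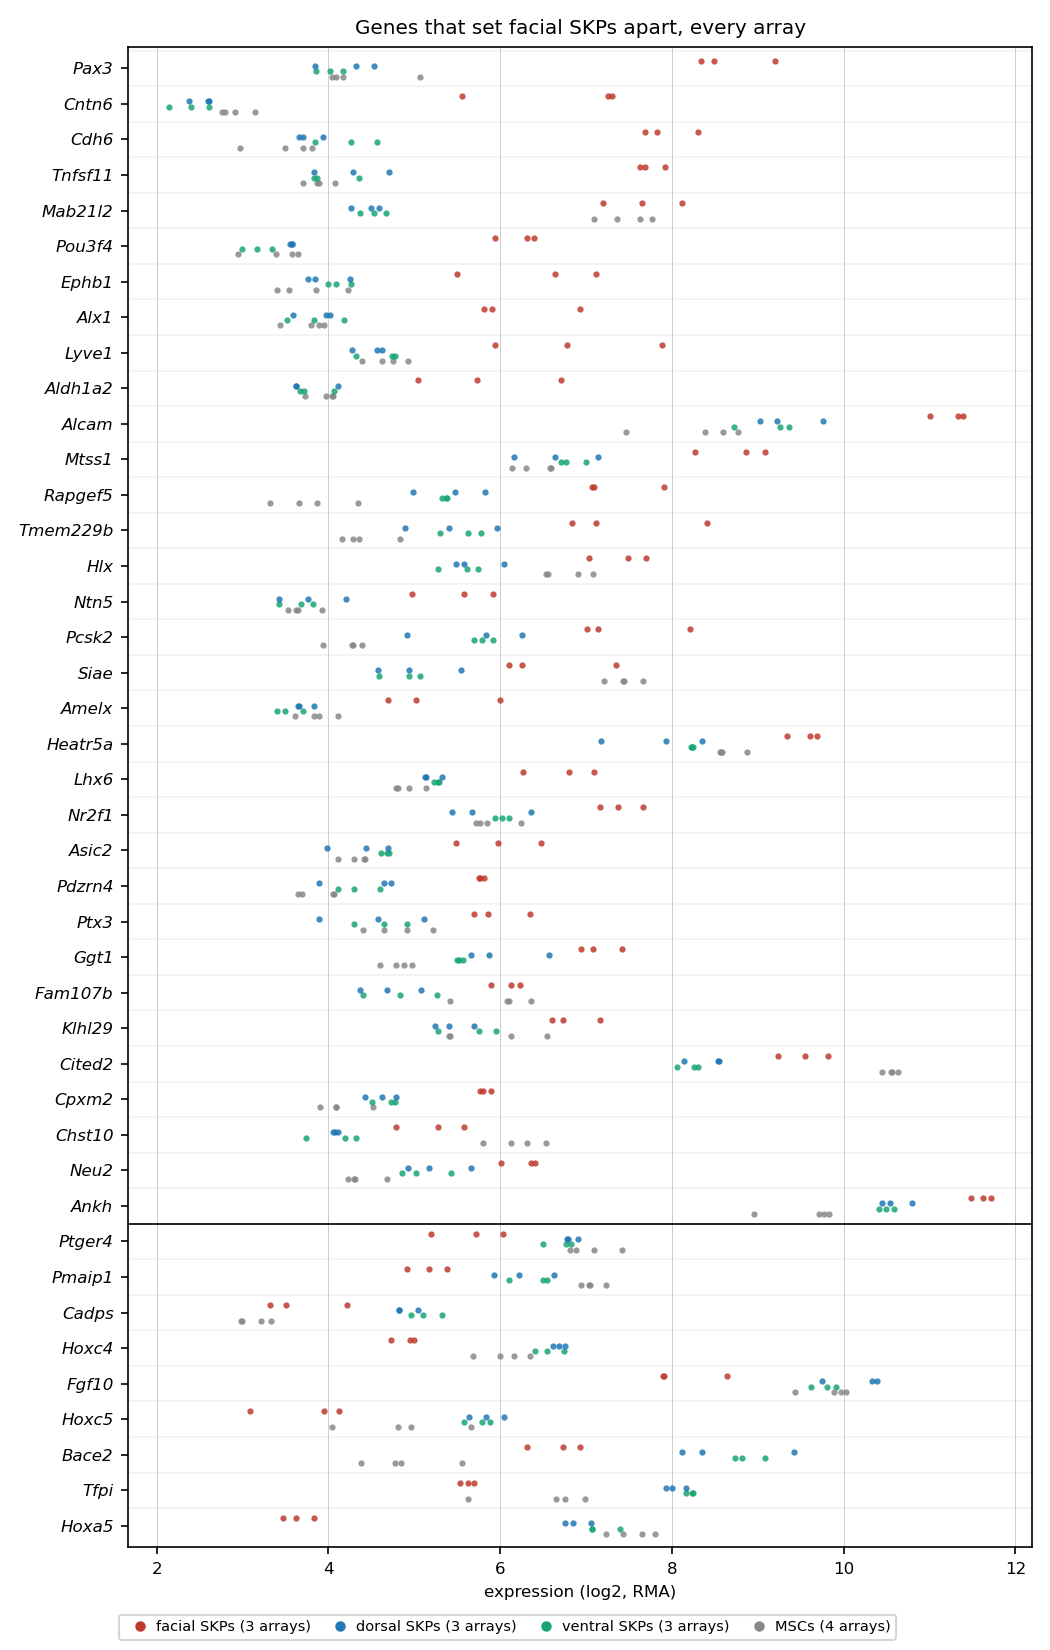
Expression (log2, RMA; horizontal axis) of the 42 genes that set facial SKPs apart, 1 gene a row, with a point for every array: facial SKPs red, dorsal blue, ventral green and MSCs grey. Above the line are the 33 genes with all 3 facial points to the right of the 6 trunk points, ordered from Pax3 with the largest difference (4.56), and below it the 9 with the facial points to the left, ending with Hoxa5 (-3.39).

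Among the genes that set facial SKPs apart, Pax3 had the largest facial excess. Pax3 is a paired-box transcription factor of the neural crest and of the somite's dermomyotome. It was at 8.50, 9.20 and 8.34 on the facial arrays, at 3.85, 4.32 and 4.53 on the dorsal and at 3.85, 4.02 and 4.18 on the ventral ones. The lowest facial array thus lay 3.81 log2 units above the highest trunk array. Pax3 was 23.5-fold higher in facial than in trunk SKPs (log2 difference 4.56, SE 0.26, adjusted p = 2.31e-06). Its trunk levels were near the level of genes with no expected expression in skin, since the 90th percentile of olfactory receptor genes was 3.59 in dorsal and 3.48 in ventral SKPs. In MSCs Pax3 was as low as in trunk SKPs, with a mean of 4.34 ± 0.49 (SD, n = 4).

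Cdh6, a cadherin of the early neural crest, showed the same split. Its facial arrays were at 7.68, 8.30 and 7.82, its dorsal arrays at 3.71, 3.66 and 3.94, and its ventral arrays at 3.84, 4.57 and 4.26. No array of one side came near the other, and the difference was 3.94 (15.3-fold, SE 0.21, adjusted p = 2.12e-06). Of 17 measured neural crest factors, Pax3 and Cdh6 were the 2 called higher, against 1.28% of all genes. Zic1 was the 1 called lower, against 1.42% of all genes. The list's median difference was -0.02, that of all genes being -0.02. Zic1, a zinc finger factor of the dorsal neural tube and somites, was a gene of dorsal skin: it stood at 3.97, 4.14 and 3.60 on facial, 7.53, 8.25 and 8.53 on dorsal and 4.06, 4.04 and 3.65 on ventral arrays. Its facial and ventral arrays overlapped, and its call (-2.10, SE 0.20, adjusted p = 0.000234) rested on the dorsal arrays. With all 6 trunk arrays as 1 group Zic1 was not called (adjusted p = 0.384).

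Among 23 measured craniofacial patterning factors, 4 were called higher in facial SKPs (Alx1, Msx1, Lhx6 and Nr2f1), against 1.28% of all genes. Alx4 was the 1 called lower, against 1.42%, and the median was 0.02. Alx1, a homeobox factor of the mesenchyme around the nose and eyes, was at 6.93, 5.90 and 5.81 on the facial arrays. On the trunk arrays it ranged from 3.52 to 4.18, so that no array overlapped (difference 2.36, SE 0.24, adjusted p = 0.000449). Msx1, a homeobox factor of growing facial primordia and teeth, was at 8.61, 7.62 and 7.38 on facial, 5.54, 4.92 and 5.21 on dorsal and 6.04, 5.997 and 5.86 on ventral arrays (2.27, SE 0.23, adjusted p = 0.000454). Its facial arrays lay above all trunk arrays. Msx1 did not count among the 42 genes, because dorsal minus ventral was -0.74 (95% interval -1.33 to -0.15).

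Lhx6, a LIM-homeobox factor of the jaw mesenchyme and of teeth, was at 6.81, 7.09 and 6.26 on the facial arrays. The 6 trunk arrays fell within a narrow band from 5.13 to 5.32 (difference 1.49, SE 0.15, adjusted p = 0.000454). Nr2f1, an orphan nuclear receptor, was at 7.17, 7.37 and 7.66 on facial arrays and between 5.44 and 6.36 on trunk arrays (1.48, SE 0.19, adjusted p = 0.0021). Alx4, a relative of Alx1, went the other way. It was at 7.92, 7.38 and 7.02 on facial, 8.33, 8.59 and 7.89 on dorsal and 9.11, 9.18 and 9.01 on ventral arrays, and facial array 1 overlapped with dorsal array 3. Its difference was -1.24 (SE 0.21, adjusted p = 0.0117), and its adjusted p was 0.0628 without facial array 3 and 0.0685 with the trunk as 1 group.

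Further transcription factors and developmental regulators stood among the 33 higher genes. Pou3f4, a POU-domain factor of the inner ear and forebrain, was at 5.94, 6.40 and 6.31 on facial arrays, while its trunk arrays (2.99 to 3.58) lay about at the background (2.85, SE 0.16, adjusted p = 2.31e-06). Mab21l2, needed for eye and body wall development, was at 7.20, 8.12 and 7.65 on facial arrays and between 4.26 and 4.68 on trunk arrays (3.17, SE 0.20, adjusted p = 4.68e-06). Mab21l2 was as high in MSCs (mean 7.46 ± 0.30) as in facial SKPs, so here the trunk SKPs were the group apart. The homeobox factor Hlx was at 7.04, 7.49 and 7.70 on facial arrays and between 5.27 and 6.04 on trunk arrays, with MSCs between both at a mean of 6.77 (facial minus trunk 1.79, SE 0.19, adjusted p = 0.000499). Cited2, a co-regulator of the p300 acetyltransferase family, was higher in facial than in trunk SKPs by 1.23 (SE 0.13) and higher still in MSCs.

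Of 22 measured Hox genes, 9 were called lower in facial SKPs, 0 higher, and 13 were not called. Of all genes, 1.42% were called lower and 1.28% higher. Hoxa5, a gene of the cervical and upper thoracic level, was at 3.47, 3.83 and 3.63 on the facial arrays, against 6.85, 6.76 and 7.06 on dorsal and 7.07, 7.40 and 7.07 on ventral arrays. The facial arrays lay about at their background level of 3.55, and the gap to the nearest trunk array was 2.93. Hoxa5 was 10.5-fold lower in facial SKPs (-3.39, SE 0.14, adjusted p = 3.75e-07), which was the lowest adjusted p among the 42 genes.

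Hoxc5 and Hoxc4, which lie side by side in the HoxC cluster with no measured gene between them, followed. Hoxc5 was at 3.08, 3.95 and 4.12 on facial arrays and between 5.58 and 6.04 on trunk arrays (-2.08, SE 0.31, adjusted p = 0.00422). Hoxc4 was at 4.996, 4.95 and 4.73 on facial arrays and between 6.40 and 6.75 on trunk arrays (-1.73, SE 0.14, adjusted p = 5.56e-05). Hoxc4 stayed above the facial background of 3.55, so that its difference is between 2 measured levels. Hoxc9 had a difference of nearly the size of that of Hoxa5: it was at 3.60, 3.14 and 3.41 on facial, 6.36, 6.46 and 6.52 on dorsal and 7.12, 6.95 and 6.99 on ventral arrays (-3.35, SE 0.19, adjusted p = 2.71e-06). Its facial level was not above background. It was not among the 42 genes, because dorsal minus ventral was -0.57 with an interval from -1.06 to -0.08.

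Over 11 measured anterior Hox genes (paralogue groups 1 to 5), the median difference was -0.59. In facial SKPs 7 of them were called lower, against 1.42% of all genes, and 0 higher. The 4 not yet named were Hoxd4 (-0.79, adjusted p = 0.000693), Hoxb3 (-0.78, adjusted p = 0.0104), Hoxb4 (-0.59, adjusted p = 0.0312) and Hoxa2 (-0.56, adjusted p = 0.0465). In each of these 4 the facial arrays lay below all trunk arrays, as in 4.3% of all genes. In Hoxa2 they did so by little and with a facial mean below background. Hoxa4 (-0.47, adjusted p = 0.103), Hoxb2 (-0.02), Hoxd3 (-0.17) and Hoxd1 (0.16) did not pass. Of 3 measured central Hox genes, Hoxa7 was called (-0.95, SE 0.14, adjusted p = 0.00479; 0.0518 with the trunk as 1 group). Of 8 posterior ones, Hoxc9 was called and the list's median was -0.08. Hox cofactors bind DNA together with Hox proteins, and 1 of 7 was called: Meis1, at 7.57, 7.45 and 7.68 on facial arrays and between 8.23 and 8.87 on trunk arrays (-0.89, SE 0.17, adjusted p = 0.0237). Leaving out any 1 of 5 arrays ended the call, facial arrays 1, 2 and 3 and ventral arrays 1 and 3, with an adjusted p of 0.0567 to 0.0711.

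**Figure D2:**
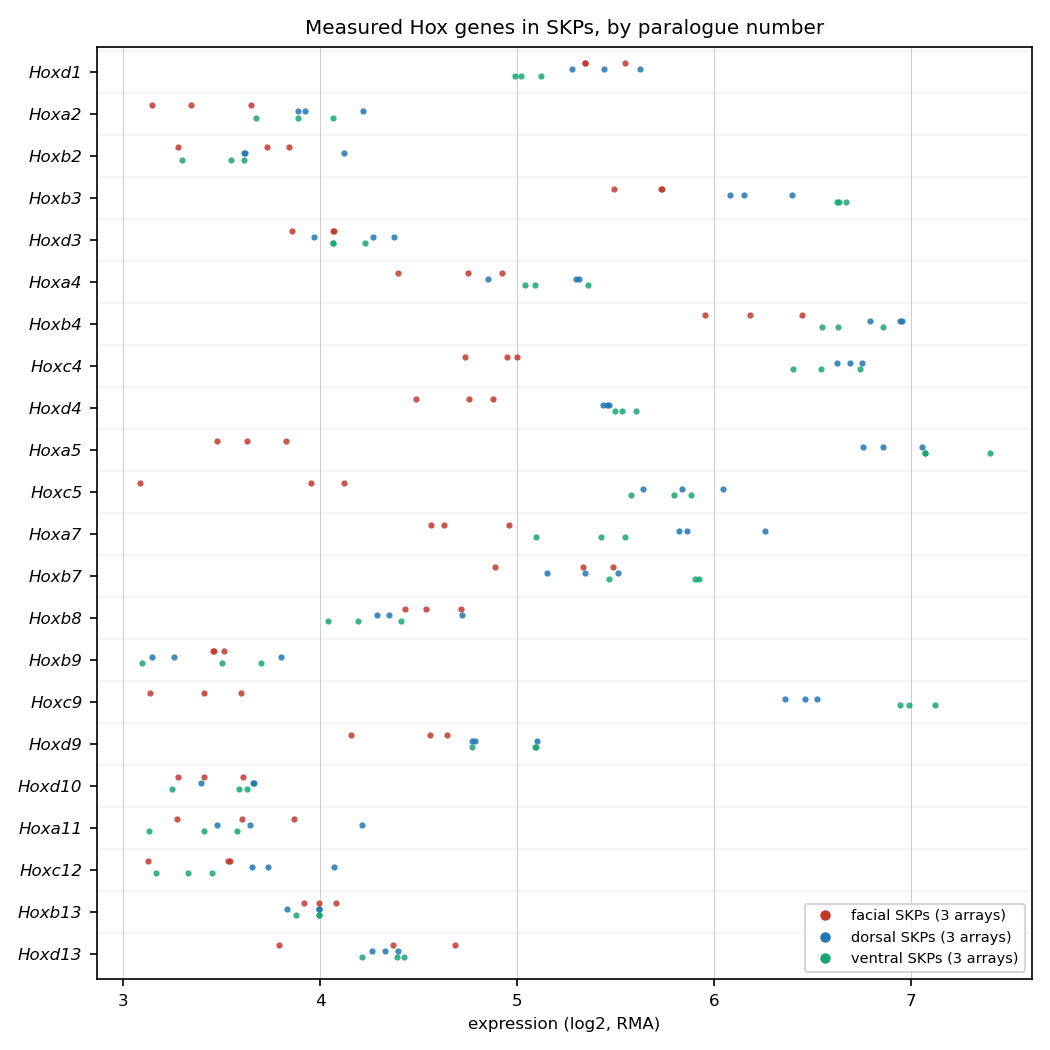
Expression (log2, RMA; horizontal axis) of the 22 measured Hox genes, 1 gene a row ordered by paralogue number, with a point for each facial (red), dorsal (blue) and ventral (green) SKP array. The facial points lie left of all trunk points and far from them in Hoxa5, Hoxc5, Hoxc4 and Hoxc9, and among the trunk points in genes such as Hoxd1 and Hoxb8.

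The 33 higher genes also included some that act at the cell surface. Cntn6, a contactin that sits on neuronal surfaces, was at 5.55, 7.25 and 7.30 on facial arrays and between 2.15 and 2.61 on trunk arrays, which is below background. Its difference of 4.25 (SE 0.31, adjusted p = 2.8e-05) therefore rests on a trunk level that was not measured above background. Alcam, an adhesion molecule of the immunoglobulin family, was high in all SKPs, at 11.01, 11.39 and 11.33 on facial and 8.72 to 9.76 on trunk arrays (2.02, SE 0.27, adjusted p = 0.00239). Ephb1, a receptor for ephrin-B ligands, was at 5.50, 7.12 and 6.64 on facial and 3.76 to 4.26 on trunk arrays (2.38, SE 0.30, adjusted p = 0.00161). The netrin Ntn5 was at 4.98, 5.92 and 5.58 on facial arrays and at most 4.21 on trunk arrays (1.77, SE 0.21). Mtss1, which shapes membranes over actin, was at 8.27, 9.09 and 8.86 on facial arrays and at most 7.14 on trunk arrays (2.00, SE 0.22, adjusted p = 0.000655).

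Among 39 measured semaphorins, ephrins, netrins, slits and their receptors, 2 were called higher and 2 lower, against 1.28% and 1.42% of all genes. The median was 0.13. Besides Ephb1 the higher one was the ephrin-A receptor Epha7, at 6.32, 7.41 and 6.44 on facial, 4.66, 4.67 and 3.81 on dorsal and 5.33, 5.05 and 5.34 on ventral arrays (1.91, SE 0.33, adjusted p = 0.0117). The facial arrays of Epha7 lay above all trunk arrays. Sema3d, a secreted repellent, was ordered facial, dorsal, ventral from low to high. It was at 6.70, 6.49 and 6.19 on facial, 7.81, 8.85 and 9.13 on dorsal and 10.74, 11.58 and 10.53 on ventral arrays. The 3 regions did not overlap, and facial minus trunk was -3.31 (SE 0.41, adjusted p = 0.00161). Facial minus dorsal on its own was -2.14, with an adjusted p of 0.0569. Sema4c was called lower (-0.69, adjusted p = 0.026), but its facial and dorsal arrays overlapped and its ventral arrays were higher. Its call was lost without any 1 of facial arrays 1 and 3 and ventral arrays 1 and 3 (adjusted p 0.0587 to 0.117), and its difference was -0.36 with the leukocyte covariate.

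Among the 42 were 1 cytokine, 1 growth factor and 1 prostaglandin receptor. Tnfsf11, the cytokine RANKL that induces osteoclasts, was at 7.63, 7.92 and 7.69 on facial, 4.70, 4.29 and 3.83 on dorsal and 3.87, 3.83 and 4.36 on ventral arrays. The facial arrays lay within 0.29 of each other and far above every trunk array (3.60, 12.1-fold, SE 0.18, adjusted p = 1.68e-06). MSCs had trunk-like levels, with a mean of 3.89 ± 0.15. Fgf10, a growth factor from mesenchyme to epithelium, was at 7.90, 8.65 and 7.91 on facial, 10.33, 10.38 and 9.75 on dorsal and 9.62, 9.91 and 9.80 on ventral arrays. It was lower in facial SKPs by 3.52-fold (-1.81, SE 0.20, adjusted p = 0.000712). Fgf10 was the 1 gene called among 26 measured FGF ligands, receptors and targets, against 2.7% of all genes. Ptger4, a receptor of prostaglandin E2, was at 5.72, 5.20 and 6.04 on facial and 6.50 to 6.91 on trunk arrays (-1.11, SE 0.18, adjusted p = 0.00809).

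Aldh1a2, which makes retinoic acid from retinaldehyde, was at 5.05, 5.73 and 6.71 on facial arrays. Its trunk arrays, from 3.62 to 4.11, lay close to background (2.03, SE 0.28, adjusted p = 0.00285). Dhrs3, which reduces retinaldehyde back to retinol, was at 8.38, 9.70 and 9.02 on facial, 7.74, 7.35 and 7.84 on dorsal and 7.09, 7.02 and 6.64 on ventral arrays (1.75, SE 0.27, adjusted p = 0.0057). Both facial sets lay above all trunk arrays. They were the 2 called of 21 measured retinoid handling genes, against 2.7% of all genes. The list's median was 0.19.

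Secreted Wnt antagonists bind Wnt proteins or their receptors. Dkk2, which blocks Wnt co-receptors, was at 10.10, 9.71 and 8.66 on facial, 6.70, 5.59 and 5.07 on dorsal and 6.09, 6.79 and 5.86 on ventral arrays (3.47, SE 0.44, adjusted p = 0.00172). Sfrp2, a soluble Wnt-binding protein, was at 8.97, 10.13 and 9.63 on facial, 6.25, 6.94 and 7.88 on dorsal and 5.17, 5.66 and 5.22 on ventral arrays (3.39, SE 0.31, adjusted p = 0.000208). In both the lowest facial array exceeded the highest trunk array. Frzb, another soluble Wnt-binding protein, belonged to ventral SKPs instead, at 10.38, 9.89 and 9.97 there. It was at 4.92, 5.23 and 5.33 on facial arrays and 5.42, 4.62 and 4.49 on dorsal arrays, which overlapped (facial minus trunk -2.30, adjusted p = 0.000471; 0.457 with the trunk as 1 group). These were the 3 called of 20 measured Wnt antagonists and feedback genes (median 0.04), against 2.7% of all genes. Of 17 Wnt ligands, 1 was called lower, Wnt6 (-0.43, adjusted p = 0.0411), with ventral arrays above the others. Wnt6 lost its call without any 1 of 8 of the 9 SKP arrays, all but dorsal array 1 (adjusted p 0.0549 to 0.148).

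Bone morphogenetic proteins (BMPs) and their inhibitors are signals for skeletal and skin patterning. Of 29 measured ligands and inhibitors of the BMP and TGF-beta family, 3 were called higher and 0 lower. The median was 0.11, and all genes gave 1.28% higher and 1.42% lower. Bmp3, which antagonises other BMPs, was at 9.44, 8.28 and 8.24 on facial, 7.94, 6.52 and 7.16 on dorsal and 4.29, 5.08 and 4.38 on ventral arrays (2.76, SE 0.43, adjusted p = 0.00655). Its facial minus dorsal difference of 1.44 was not called (adjusted p = 0.216), and with the trunk as 1 group neither was facial minus trunk (0.109). Bmp7 was at 10.33, 10.36 and 9.73 on facial arrays and at most 9.12 on trunk arrays (1.55, SE 0.30, adjusted p = 0.024). The call of Bmp7 was lost without any 1 of facial arrays 1 and 2 and ventral arrays 1 and 3 (adjusted p 0.0582 to 0.087). The BMP modulator Twsg1 was higher by 0.76 (adjusted p = 0.0338), and lost its call without any 1 of facial arrays 2 and 3 and the 3 ventral arrays (adjusted p 0.0548 to 0.131).

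**Figure D3:**
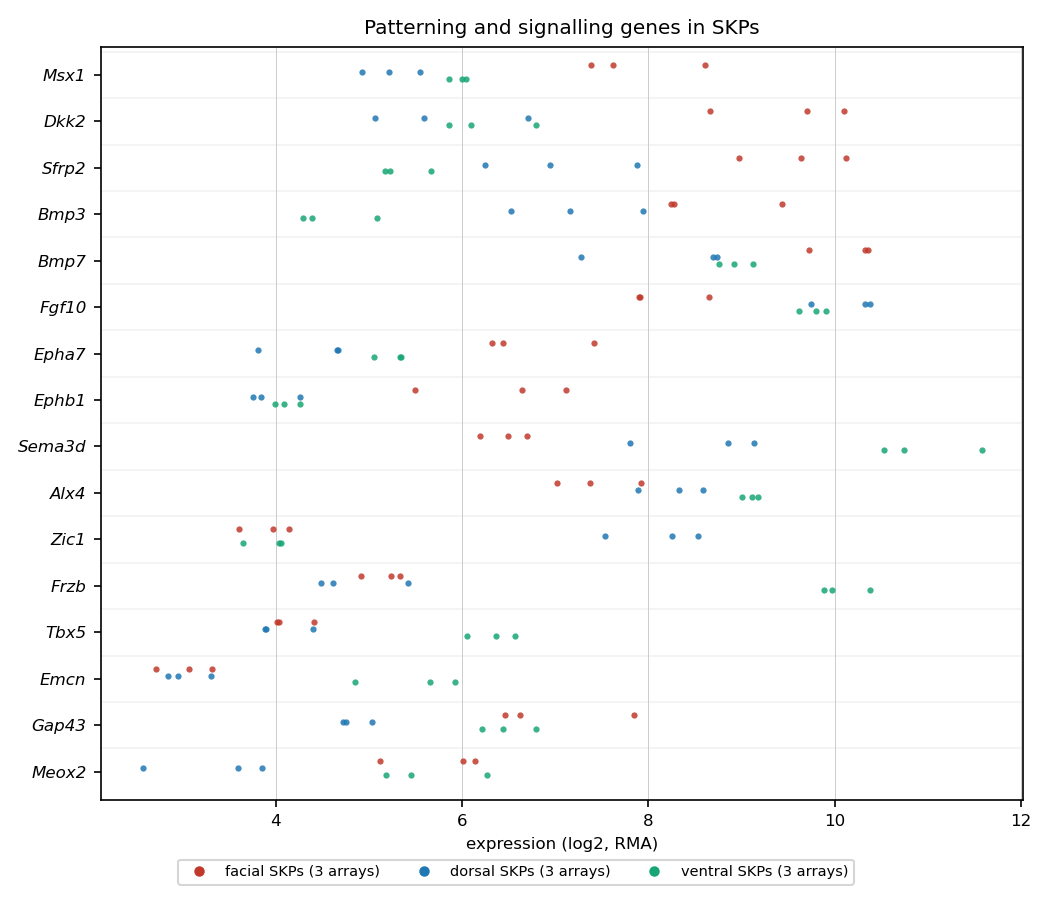
Expression (log2, RMA; horizontal axis) of 16 patterning and signalling genes, chosen after their values were seen, with a point for each facial (red), dorsal (blue) and ventral (green) SKP array. In Msx1, Dkk2, Sfrp2, Bmp3, Bmp7, Epha7 and Ephb1 the facial points lie to the right of all trunk points. In Zic1 only the dorsal points, and in Frzb, Tbx5 and Emcn only the ventral points, stand away from the other 2 regions.

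Position factors of the trunk were read in the same way, beside the 2.7% of all genes called. Of 11 measured somite and dorsal dermis factors, 1 was called higher, Tbx15 (0.74, adjusted p = 0.0262). Without any 1 of facial arrays 2 and 3 and the 3 ventral arrays it was not called (adjusted p 0.056 to 0.0983), nor with arrays centred on their medians. Meox2, a somite factor, was at 6.01, 5.12 and 6.14 on facial, 3.85, 3.59 and 2.57 on dorsal and 6.27, 5.18 and 5.45 on ventral arrays. Facial and ventral arrays overlapped, and facial minus trunk was 1.27 with an adjusted p of 0.0787. Of 19 lateral plate and ventral body wall factors, Osr2 was called higher (0.81, adjusted p = 0.0117), at 6.15, 6.24 and 6.11 on facial and 5.03 to 5.62 on trunk arrays. Tbx5, a factor of the forelimb and heart fields (-1.04, adjusted p = 0.0112), and Irx5 (-0.93, adjusted p = 0.0235) were called lower. For Tbx5 the facial and dorsal arrays overlapped at 3.89 to 4.41, and the ventral ones stood at 6.57, 6.37 and 6.05. Tbx5 was not called without facial array 3 (adjusted p 0.0611) or with the trunk as 1 group (0.447), and Irx5 not without any 1 of facial arrays 1 and 2 and ventral arrays 2 and 3 (adjusted p 0.0523 to 0.0711).

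Genes of the hair follicle's dermal papilla and sheath did not move in 1 direction, with a median of -0.06. Of 22 measured, 2 were called higher and 2 lower, against 1.28% and 1.42% of all genes. Besides Fgf10 the called members were Sox18 (-0.91), Rspo1 (0.98) and Trps1 (0.84). Sox18 was high in ventral SKPs alone of the 3 regions, at 5.18, 4.74 and 5.40 against 3.18 to 3.68 on the facial and dorsal arrays. Trps1, a zinc finger factor of hair and craniofacial development, was at 10.94, 10.56 and 10.78 on facial and at most 10.44 on trunk arrays (adjusted p = 0.0267). Rspo1, an enhancer of Wnt signalling, overlapped between facial and ventral arrays. Calls of these 3 were lost without any 1 of 3 arrays for Sox18 (facial 1 and 2, ventral 1; adjusted p 0.0529 to 0.0646), 4 for Rspo1 (facial 2 and 3, ventral 1 and 3; 0.063 to 0.101) and 5 for Trps1 (facial 1 and 3 and the 3 ventral; 0.0518 to 0.102).

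The remaining members of the 33 higher genes covered several functions. Enzymes and matrix proteins included Pcsk2, a prohormone convertase (1.72), the sialic acid esterase Siae (1.63), the sialidase Neu2 (1.08), the sulfotransferase Chst10 of the HNK-1 epitope (1.14), gamma-glutamyltransferase Ggt1 (1.37) and Cpxm2, a carboxypeptidase-like protein (1.18). Amelx, the main protein of the enamel matrix, was at 5.02, 5.99 and 4.69 on facial arrays and at most 3.83 on trunk arrays, close to background there (1.61, SE 0.23, adjusted p = 0.00332). Lyve1, a hyaluronan receptor of lymphatic vessels and of some macrophages, was at 7.88, 5.94 and 6.78 on facial and 4.28 to 4.78 on trunk arrays (2.32, SE 0.32, adjusted p = 0.00284). Ankh, which controls pyrophosphate outside the cell and so mineral deposition, was at 11.49, 11.71 and 11.62 on facial and 10.41 to 10.80 on trunk arrays. Its difference of 1.06 (SE 0.17) was the smallest of the 33. The rest were the acid-sensing channel subunit Asic2 (1.46), the pentraxin Ptx3 (1.39), the exchange factor Rapgef5 (1.96), Tmem229b (1.96), Heatr5a (1.53), Pdzrn4 (1.40), Fam107b (1.31) and Klhl29 (1.28).

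Of the 9 lower genes, 3 were Hox genes and Fgf10 and Ptger4 were signalling genes. Tfpi, which inhibits the tissue factor pathway of clotting, was at 5.70, 5.53 and 5.63 on facial, 8.16, 7.93 and 8.002 on dorsal and 8.24, 8.25 and 8.16 on ventral arrays. Each group was tight, and the gap between them was 2.24, for a difference of 5.68-fold (-2.51, SE 0.23, adjusted p = 0.000208). Bace2, an aspartic protease, was at 6.73, 6.93 and 6.31 on facial and 8.12 to 9.43 on trunk arrays (-2.10, SE 0.30, adjusted p = 0.00332). Cadps, which primes dense-core vesicles for release, was at 4.22, 3.31 and 3.51 on facial and 4.82 to 5.33 on trunk arrays (-1.33, SE 0.18). The apoptosis gene Pmaip1 (Noxa) was at 5.38, 4.92 and 5.18 on facial and 5.93 to 6.63 on trunk arrays (-1.16, SE 0.16).

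Over the 33 higher genes the median difference was 1.72, and over the 9 lower ones -1.81. Dorsal and ventral SKPs differed by at most 0.25 in 27 of the 33 and in 7 of the 9. MSCs gave a reference level outside the SKPs. In 27 of the 33 higher genes the MSC mean was nearer the trunk than the facial mean, and in Mab21l2, Hlx, Siae, Fam107b, Cited2 and Chst10 it was nearer the facial mean. In 6 of the 9 lower genes MSCs were nearer the trunk, among them all 3 Hox genes. In Cadps, Bace2 and Tfpi they were nearer the facial SKPs. The trunk mean was not above background in 2 of the 33 (Cntn6 and Pou3f4). The 42 genes lay on 16 chromosomes, with 7 on chromosome 2, and Cdh6 and Ankh there had 6 measured genes between them.

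**Figure D4:**
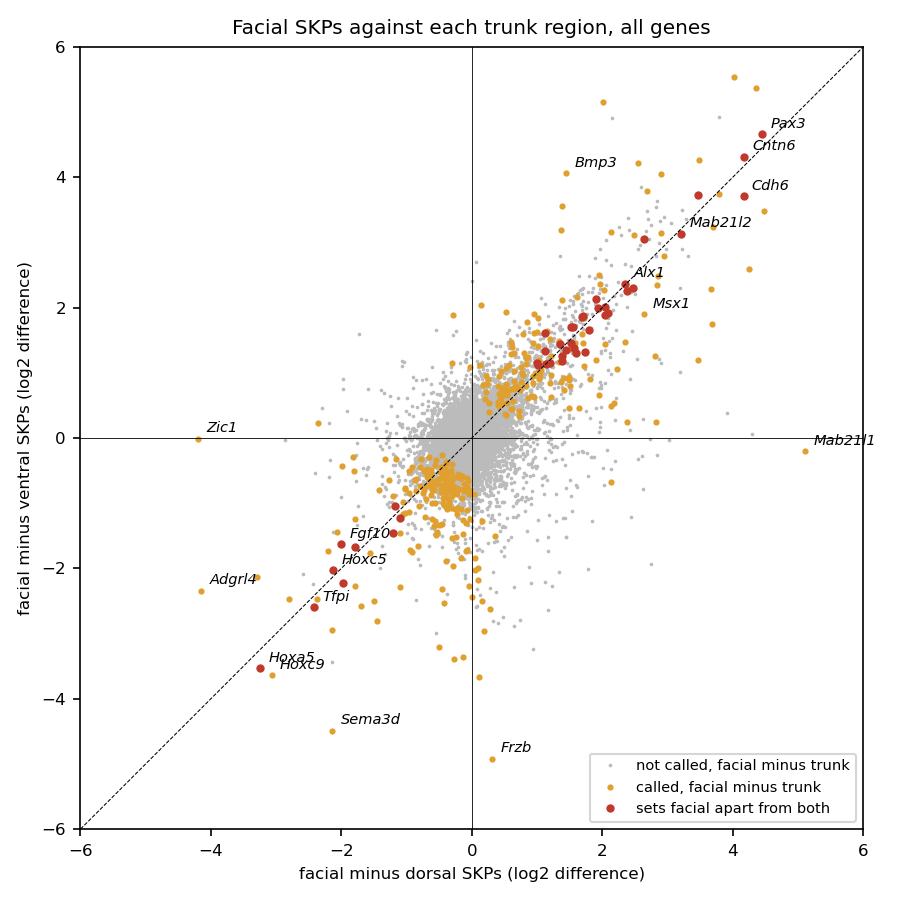
Facial minus dorsal (horizontal axis) against facial minus ventral SKPs (vertical axis), log2 differences of all 14506 genes. Both axes share the facial arrays, so a spread along the dashed line of equal differences follows from that. Red points are the 42 genes that set facial apart, which the rule places near that line, orange points other genes called in facial minus trunk, and grey points genes not called. Zic1 lies far left at a facial minus ventral difference of -0.01, and Frzb far below at a facial minus dorsal difference of 0.32.

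Some genes had larger facial differences than most of the 42 but did not meet the rule, and they were chosen here after their values were seen. In Areg the dorsal minus ventral interval reached beyond 1. Dorsal minus ventral itself was -0.99 in Vcam1, -1.93 in Reln and 1.81 in Adgrl4. Reln was also not called against ventral SKPs. Vcam1, an adhesion molecule for leukocytes, was at 7.43, 9.71 and 8.97 on facial, 4.13, 4.45 and 4.10 on dorsal and 5.13, 4.39 and 6.11 on ventral arrays (3.98, SE 0.53, adjusted p = 0.00236). Areg, a ligand of the EGF receptor, was at 6.96, 8.56 and 7.69 on facial and 4.62 to 5.31 on trunk arrays (2.67, SE 0.28, adjusted p = 0.000471). The glycoprotein gene Reln, known from neuronal migration, was at 8.14, 7.92 and 8.34 on facial, 4.71, 4.27 and 4.37 on dorsal and 6.03, 6.14 and 6.97 on ventral arrays (2.72, SE 0.49, adjusted p = 0.0176). Adgrl4, an adhesion receptor of endothelium, was at 4.12, 3.40 and 3.49 on facial, 7.80, 7.38 and 8.29 on dorsal and 5.87, 6.10 and 6.08 on ventral arrays (-3.25, SE 0.23, adjusted p = 2.29e-05). These 4 genes were picked from genes whose facial arrays lay outside the range of all trunk arrays, as in 7.58% of all genes. The lack of overlap was thus a condition of the choice. Npy, a neuropeptide, was at 11.12, 11.80 and 10.26 on facial arrays, but its trunk arrays spread from 6.01 to 9.16 (3.77, SE 0.73, adjusted p = 0.023).

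Markers of other cell types were read beside these results. Of 28 macrophage and leukocyte markers, 27 were measured. In facial SKPs 4 were called higher (Cybb, Mrc1, Itgam and Fcgr1a), against 1.28% of all genes. The median difference was 2.80, and all 27 differences were positive. By limma at an unadjusted p under 0.05, passed by 17.8% of all genes, 25 of the 27 passed. Their mean level was 7.43, 6.03 and 9.69 on the facial arrays, 6.82, 4.85 and 4.04 on the dorsal, 4.98, 4.96 and 5.26 on the ventral and 4.03 to 4.56 on the MSC arrays. Facial array 3 was the highest facial array in 27 of the 27 and lay above all trunk arrays in each. Dorsal array 1 was the highest trunk array in 23. In 0 of the 27 did all 3 facial arrays lie above all trunk arrays, where 3.27% of all genes did so. Ptprc, the pan-leukocyte antigen CD45, was at 7.59 and 5.77 on facial arrays 1 and 2 and at 10 on facial array 3, at 7.03, 3.83 and 3.59 on dorsal and 4.43, 4.96 and 5.30 on ventral arrays. Csf1r, the growth factor receptor of macrophages, was at 7.37, 5.56 and 10.50 on facial and 4.07 to 6.59 on trunk arrays. Facial and trunk arrays overlapped in both, and neither was called (adjusted p 0.0925 and 0.0844). The calls of the 4 markers were lost without facial array 3, with adjusted p-values of 0.19 (Cybb), 0.137 (Mrc1), 0.179 (Itgam) and 0.102 (Fcgr1a), and also without any 1 of facial array 1 and the 3 ventral arrays. Cybb, Itgam and Fcgr1a were further not called without dorsal array 2, and Itgam and Fcgr1a not without dorsal array 3, the adjusted p-values of all 4 markers without 1 array lying between 0.0631 and 0.19 where the call was lost. Without facial array 3 the differences were 3.95 for Cybb, 3.88 for Mrc1, 2.04 for Itgam and 1.33 for Fcgr1a. Without dorsal array 3 as well they were 3.23, 3.30, 1.75 and 1.21.

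None of these markers was among the 42 genes, which follows from the rule, since none had all 3 facial arrays above all trunk arrays. Of the 33 higher genes, 6 were highest on facial array 1, 18 on facial array 2 and 9 on facial array 3. With the marker mean as a covariate in the fit, 17 of the 42 genes were still called, and 40 kept a difference of at least 1. Pax3 was then at 5.15, Cdh6 at 4.12, Tnfsf11 at 3.40 and Hoxa5 at -3.27. The covariate lowered Siae from 1.63 to 0.85, Tmem229b from 1.96 to 1.04 and Rapgef5 from 1.96 to 1.32, and all 3 were highest on facial array 3. Ankh, from 1.06 to 0.96, was the other gene below 1. Of the other 38 named genes called in facial minus trunk, 5 kept their call with the covariate. Without dorsal array 3 and facial array 3, all 42 kept a difference of at least 1. Apart from the covariate and the replicate block, calls of facial minus trunk were lost by 5 of the 42 genes. Chst10 and Fam107b lost theirs without facial array 3 (adjusted p 0.0604 and 0.0722) and without it and dorsal array 3 (0.0683 and 0.0854), and Ptx3 without any 1 of facial arrays 1 and 2 and ventral array 1 (0.0554 to 0.0674). Klhl29 lost its call without any 1 of facial arrays 1 and 3 and ventral arrays 2 and 3 (0.0552 to 0.101) or of the pair of dorsal array 3 and facial array 3 (0.0979). Ankh lost its call without that pair alone (0.0547).

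**Figure D5:**
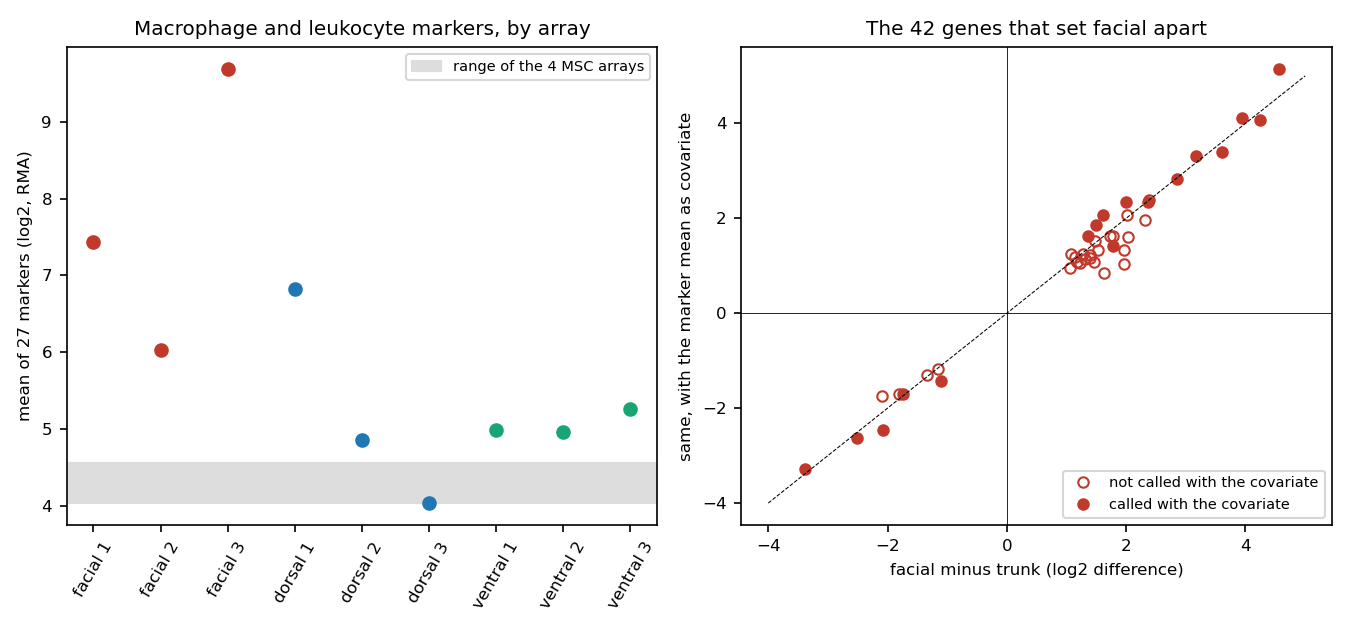
Left: mean level (log2, RMA; vertical axis) of 27 macrophage and leukocyte markers on each SKP array (facial red, dorsal blue, ventral green), with the range of the 4 MSC arrays as a grey band; facial array 3 is highest at 9.69. Right: facial minus trunk difference of the 42 genes without (horizontal) and with (vertical) that mean as a covariate, filled where the gene was still called (17 genes), with a dashed line of equal values.

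Endothelial markers were called lower in facial than in trunk SKPs in 3 of 16 measured genes, against 1.42% of all genes. The list's median was -0.32. In each of Emcn (-1.22), Sox18 (-0.91) and Cdh5 (-0.63) the facial and dorsal arrays overlapped and the ventral arrays were higher. Emcn, a sialomucin of venous endothelium, was at 5.66, 4.85 and 5.92 on ventral arrays against 2.71 to 3.31 on facial and dorsal ones. With the trunk as 1 group the adjusted p was 0.417 for Emcn, 0.365 for Sox18 and 0.257 for Cdh5. With the leukocyte covariate it was 0.272, 0.131 and 0.181, so that all 3 calls were lost in both settings. The differences with the covariate were -1.18 for Emcn, -1.07 for Sox18 and -0.55 for Cdh5. Cdh5 kept its call without each array in turn, while Emcn was not called without any 1 of facial arrays 1 and 3 and ventral arrays 1 and 3 (adjusted p 0.0504 to 0.0945). Of 16 Schwann and glial markers, 1 was called higher, Gap43, a growth cone protein, against 1.28% of all genes. Gap43 was at 6.62, 7.84 and 6.46 on facial, 5.04, 4.75 and 4.72 on dorsal and 6.21, 6.44 and 6.79 on ventral arrays (1.32, adjusted p = 0.0249). Facial and ventral arrays overlapped, and the call of Gap43 was lost without ventral array 1 or 2 (adjusted p 0.063 and 0.056). Melanocyte (9 measured), neuronal (15), keratinocyte (12), T, B and mast cell (14), bone (14), cartilage (14) and fat lineage markers (15) had no gene called, with medians from -0.19 for melanocyte to 0.14 for fat lineage markers. By limma at an unadjusted p under 0.05, which 17.8% of all 14506 genes passed, 3, 2, 2, 2, 4, 1 and 4 of them passed, in the same order.

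Other gene groups gave 0 to 2 calls each, where 2.7% of all genes were called. Of 18 smooth muscle and pericyte markers, the smooth muscle coactivator Myocd was called higher, at 6.52, 6.03 and 6.12 on facial, 6.08, 5.09 and 4.95 on dorsal and 4.50, 4.56 and 4.28 on ventral arrays (1.31, adjusted p = 0.0162). Facial and dorsal arrays overlapped, and Myocd was not called without facial array 1 or 3 (adjusted p 0.053 to 0.0687). Of 20 skeletal muscle markers, the myosin heavy chain Myh1 was called higher (1.25, adjusted p = 0.0403) and the acetylcholine receptor subunit Chrna1 lower (-1.69, adjusted p = 0.0389). Both calls were lost without any 1 of 6 arrays: the 3 facial and 3 ventral ones for Myh1 (0.0703 to 0.173), and facial arrays 1 and 3, dorsal array 1 and the 3 ventral ones for Chrna1 (0.0596 to 0.147). Of 27 Mmp, Adamts and Timp genes, the aggrecan-cleaving protease Adamts5 was called lower (-1.15, adjusted p = 0.0239), at 5.40, 5.86 and 5.46 on facial, 7.09, 7.12 and 7.91 on dorsal and 6.45, 6.25 and 5.54 on ventral arrays. Its facial and ventral arrays overlapped, and the call ended without any 1 of facial arrays 1 and 3 and ventral arrays 1 and 2 (0.0554 to 0.0986). Its difference was -0.73 with the leukocyte covariate.

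Of 14 dermal fibroblast markers, Pi16, a protein of adventitial fibroblasts, was called higher (1.03, adjusted p = 0.049), against 1.28% of all genes. Its difference was 0.62 without facial array 3, 0.56 without facial array 3 and dorsal array 3, and 0.25 with the leukocyte covariate (adjusted p = 0.738). Of 14 complement genes, the receptor C5ar1, which macrophages carry, was called higher (2.80, adjusted p = 0.0486), also against 1.28%. C5ar1 was at 6.88, 5.33 and 9.22 on facial, 5.91, 4.31 and 3.76 on dorsal and 4.03, 4.04 and 3.99 on ventral arrays, with facial array 3 highest as for the leukocyte markers. Its difference was 1.76 without facial array 3, 1.54 without facial array 3 and dorsal array 3, and 0.39 with the leukocyte marker mean as a covariate (adjusted p = 0.615). Each of the pair lost its call without any 1 of the same 7 arrays, all but facial array 2 and dorsal array 1 (0.0674 to 0.119 for Pi16, 0.0697 to 0.147 for C5ar1). No gene was called among 23 hedgehog and Notch pathway genes, 23 fibrillar collagen and matrix genes, 29 inflammatory cytokines and chemokines, 23 interferon-stimulated genes, 10 MHC class II genes, 26 cell cycle genes, 28 hypoxia and glycolysis genes, 17 cholesterol synthesis genes and 19 actin and serum response genes. By limma at an unadjusted p under 0.05, passed by 17.8% of all genes, they gave 7, 5, 5, 3, 2, 0, 4, 0 and 3 genes, in the same order. Their medians ran from -0.22 for the hypoxia genes to 0.39 for the cell cycle genes, the 2 lists that set dorsal array 3 apart from the other dorsal arrays, together with the matrix genes.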

How the data were processed

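Deposited log2 expression values of 13 arrays (Affymetrix Rat Gene 1.0 ST) were used. The authors made these log2 values with RMA in Affymetrix Expression Console (gene-core analysis), per the labels and the submitters' processing notes, which also name limma. Their versions were not stated. RMA quantile-normalises all arrays together, so a shift of all genes on 1 array is removed and levels are relative.

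Of 29215 probe sets, 15310 had exactly 1 gene symbol in the platform annotation, 323 had several and 13582 none. Symbols were updated by gene identifier for 15279 and by accession for 6, 25 were kept as given, and 2 changed. The probe set with the highest mean over the 13 arrays stood for each of 14506 genes, 527 of which had several. Background in a group was the 90th percentile of its means over 1105 olfactory receptor genes.

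Groups came from the arrays' titles. limma 3.58.1 in R 4.3.3 fitted group means over all 13 arrays (lmFit, contrasts.fit, eBayes; two-sided), with Benjamini-Hochberg adjustment and a threshold of 0.05. The fit was tested on simulated data. The number of arrays limits the precision, and p-values measure the spread between isolates.

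Named were the 12 largest differences per direction among the genes that set facial apart and were above background on the higher side, up to 4 called members of each of 39 gene lists (804 genes, 681 measured), and 13 fixed genes. Other genes were named after their values were seen. The members, lists and rules were chosen with earlier results of these data known. There were 20 alternatives, 9 of them leaving out 1 SKP array each.

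Deviations from the group means correlated at -0.12 to 0.20 between same-numbered arrays of different regions, and at -0.27 to 0.29 between other arrays. The numbers were therefore not taken to pair the isolates, though this check cannot settle whether they do.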

Additional observations from a re-analysis of the deposited data

Results flagged for a closer look

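In the 4 MSC arrays, Pax3 was at 4.04, 4.08, 4.18 and 5.07. The gap between the highest array and the next, divided by the whole range, was 0.873, above Dixon's 95% critical value for 4 samples. Of 21 genes tested in this way, Pax3 was the 1 that passed, and chance gives about 1 in 20 groups. All 4 MSC values lie below the 3 facial ones.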

How the results depend on the processing

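Under 20 alternatives no difference among the 42 genes changed its sign, and 17 of the genes were called throughout. Leaving out arrays could not change a sign, since the rule asks that no facial array overlaps with a trunk array. The counts moved more. Genes called higher and lower in facial minus trunk were 95 and 78 with a replicate block, 87 and 42 with the trunk as 1 group, 321 and 369 with array weights, 30 and 21 with the leukocyte covariate, and 110 and 102 without dorsal array 3 and facial array 3. Centring each array on its median gave 324 lower. The covariate left 11 higher and 5 lower genes that set facial apart, 14 of these 16 shared with the 42. With 1 array left out, called higher ranged from 80 (without ventral array 1) to 229 (without dorsal array 1) and called lower from 58 (without facial array 3) to 332 (without dorsal array 2). Genes that set facial apart ranged from 18 (without ventral array 3) to 39 (without facial array 1) higher and from 7 to 11 lower. The cause of these shifts was not tested. Of the named genes, 28 lost their call with the trunk as 1 group, none of them among the 42. The rule admits only genes with dorsal and ventral SKPs alike, so this setting does not test the 42. Without dorsal array 3 and facial array 3, 23 named genes lost their call, 4 of them among the 42. With the replicate block 29 genes set facial apart, all 29 among the 42, and Klhl29 and Ptx3 were not called (adjusted p 0.0635 and 0.0578).

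Among genes not called, Crabp1 turned to -0.13 with array weights, -1.03 with the covariate and -0.35 without dorsal array 3 and facial array 3, and ranged from -0.37 to 0.53 with 1 array left out. Tfap2a turned to 0.68 with the covariate and 0.18 without both arrays, and Vcan to -0.11 with the covariate. With 1 array left out, Mmp13 ranged from -0.30 to 0.34 and Twist1 from -0.18 to 0.14. Differences of genes near the background level, such as Cntn6 and Pou3f4 in trunk SKPs, depend on signal that is not above that of olfactory receptor genes.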
